A study of Mus musculus with 2 samples.

Results

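Small Cajal body RNAs (scaRNAs) were examined in the nucleoplasm of macrophages. The members were all transcripts whose annotated biotype was scaRNA, which gave 51 of 141767 named transcripts. They carry 46 gene symbols, and 5 symbols have a pair of transcripts that differ in length by 1 base. Their lengths run from 76 to 414 bases, with a median of 136, and 40 of them are under 150 bases. Total RNA depleted of ribosomal RNA was sequenced from bone-marrow-derived macrophages of C57BL/6J mice, which are phagocytes grown in culture from marrow cells. The cells received lipid A, the TLR4-binding part of bacterial lipopolysaccharide, at 100 ng/ml for 12 h, were washed and left for 12 h, and received 100 ng/ml again for 25 min. Both libraries share this whole treatment and 1 donor entry, so no response to lipid A could be measured, and their spread can be technical in part or whole. Replicate 1 started from 500 ng and replicate 2 from 1 µg, so replicate and starting amount cannot be told apart. The libraries held 20196407 and 19588979 expected counts.

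Cajal bodies are nuclear compartments where the small nuclear RNAs of the spliceosome mature. A scaRNA base-pairs with such an RNA and brings an enzyme to 1 chosen nucleotide. Box C/D guides work with fibrillarin, which methylates the ribose, and box H/ACA guides work with dyskerin, which turns uridine into pseudouridine. Some scaRNAs join both kinds of domain. Most vertebrate guides are cut out of introns of other genes, and Wrap53 (TCAB1) carries many of them to the Cajal body by binding a short CAB motif.

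Of the 51 scaRNAs, 6 were detected, which here means 10 or more expected counts in each library, and their sequences show both kinds of guide. Gm22009, Scarna2, Gm25395 and Scarna6 hold the C motif TGATGA and the D motif CTGA, while Scarna13 and Gm26083 end in ACA followed by 3 bases. The sequences are the annotated transcripts of GRCm38 (mm10), 5′ to 3′. Capitals mark each TGATGA, any CTGA within the last 15 bases, and an ACA that stands 3 bases before the end.
Gm22009 bases 1 to 150, chr3:69085298-69085447, minus strand: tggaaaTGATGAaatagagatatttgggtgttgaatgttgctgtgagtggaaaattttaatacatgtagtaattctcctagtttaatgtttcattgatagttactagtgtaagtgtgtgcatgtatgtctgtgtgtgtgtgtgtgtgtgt
Gm22009 bases 194 to 343, chr3:69085105-69085254, minus strand: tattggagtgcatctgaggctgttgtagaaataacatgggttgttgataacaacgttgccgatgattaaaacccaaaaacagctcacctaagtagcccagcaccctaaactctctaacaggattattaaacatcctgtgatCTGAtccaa
Scarna2 bases 265 to 414, chr3:108554338-108554487, minus strand: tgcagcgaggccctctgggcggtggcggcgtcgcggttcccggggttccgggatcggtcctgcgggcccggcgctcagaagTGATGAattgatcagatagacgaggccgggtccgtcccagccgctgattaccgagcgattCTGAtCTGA
Gm25395, chr1:87776938-87777209, plus strand: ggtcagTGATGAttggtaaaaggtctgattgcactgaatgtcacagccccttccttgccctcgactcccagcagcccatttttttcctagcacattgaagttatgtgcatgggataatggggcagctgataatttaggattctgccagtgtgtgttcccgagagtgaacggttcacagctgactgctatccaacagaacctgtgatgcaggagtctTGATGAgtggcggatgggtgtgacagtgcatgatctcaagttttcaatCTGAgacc
Scarna6, chr1:87784556-87784820, plus strand: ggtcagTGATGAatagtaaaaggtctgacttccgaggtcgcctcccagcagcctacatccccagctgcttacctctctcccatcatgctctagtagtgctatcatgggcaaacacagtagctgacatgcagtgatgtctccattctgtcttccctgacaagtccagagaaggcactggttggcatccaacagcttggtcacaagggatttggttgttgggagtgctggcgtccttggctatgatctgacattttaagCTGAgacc
Scarna13, chr12:105031075-105031349, minus strand: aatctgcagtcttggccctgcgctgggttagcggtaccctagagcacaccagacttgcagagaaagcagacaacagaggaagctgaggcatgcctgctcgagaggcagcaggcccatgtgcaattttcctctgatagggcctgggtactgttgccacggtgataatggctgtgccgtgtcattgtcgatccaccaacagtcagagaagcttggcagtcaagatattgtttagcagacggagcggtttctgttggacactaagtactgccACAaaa
Gm26083, chr11:117077243-117077435, plus strand: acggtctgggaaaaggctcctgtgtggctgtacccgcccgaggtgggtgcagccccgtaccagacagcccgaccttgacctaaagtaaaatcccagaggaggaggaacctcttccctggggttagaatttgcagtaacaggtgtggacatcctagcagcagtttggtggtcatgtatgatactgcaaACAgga
Gm25395 and Scarna6 begin with the same 12 bases and end with the same 8 bases, and 184 of their bases (67.6%) are identical in an end-to-end alignment. They lie 7346 bases apart on the same strand in introns of 1 gene.

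Further sequences carry the results on near copies. Gm22442 and Gm23386 are identical at 94.4% of bases, and they are shown because counts fell on the first and none on the second.
Gm22442, chr11:69350518-69350661, minus strand: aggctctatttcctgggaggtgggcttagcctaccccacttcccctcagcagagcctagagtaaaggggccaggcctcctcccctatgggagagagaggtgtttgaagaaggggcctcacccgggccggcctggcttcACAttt
Gm23386, chr11:19693155-19693298, minus strand: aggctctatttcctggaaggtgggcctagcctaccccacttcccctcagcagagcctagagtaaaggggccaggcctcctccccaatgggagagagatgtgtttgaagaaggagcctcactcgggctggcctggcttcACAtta
Gm25820, Gm23370 and Gm22897 belong to a family of close relatives. These 3 hold an internal TGATGA and end in ACA plus 3 bases, and the longer transcript of each is shown.
Gm25820, chr3:88693930-88694057, plus strand: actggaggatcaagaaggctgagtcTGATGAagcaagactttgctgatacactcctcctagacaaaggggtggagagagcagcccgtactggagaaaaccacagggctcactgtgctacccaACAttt
Gm23370, chr1:127331812-127331941, plus strand: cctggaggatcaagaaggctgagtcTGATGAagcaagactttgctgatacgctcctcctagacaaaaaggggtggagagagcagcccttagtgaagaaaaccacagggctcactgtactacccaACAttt
Gm22897, chr5:4985111-4985238, minus strand: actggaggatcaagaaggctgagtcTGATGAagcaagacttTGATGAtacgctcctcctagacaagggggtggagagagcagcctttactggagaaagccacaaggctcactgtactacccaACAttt
Scarna3a and Scarna3b are identical at 85.7% of bases, and neither has a capital in this marking. Each has an ACA that stands 2 bases before its annotated end.
Scarna3a, chr1:159340283-159340422, plus strand: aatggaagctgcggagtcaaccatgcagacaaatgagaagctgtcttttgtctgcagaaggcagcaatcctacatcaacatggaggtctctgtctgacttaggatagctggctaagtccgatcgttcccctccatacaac
Scarna3b, chr12:80391613-80391751, minus strand: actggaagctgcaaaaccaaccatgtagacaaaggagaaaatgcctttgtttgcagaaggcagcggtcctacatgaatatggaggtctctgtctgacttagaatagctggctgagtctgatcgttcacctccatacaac

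Over all 51 members, the ACA end was present in 25 (49.0%). Members with an ACA 2 bases before the annotated end, such as Scarna3a, Scarna3b and Gm23751, are not among the 25. The same end was found in 18.4% of snoRNA transcripts, 0.946% of snRNA transcripts and 3.17% of all transcripts of 60 to 400 bases, all read on the transcript strand only. The C motif was found anywhere in 20 members (39.2%), against 26.0% of snoRNAs, 1.89% of snRNAs and 13.6% of all transcripts of that length. A C motif and a D motif together with an ACA end were present in 10 members (19.6%), against 0.666% of snoRNAs and 0.238% of all such transcripts. All of these 10 but Gm26039 belong to the family of Gm25820, several as pairs that differ by 1 base. The 11 transcripts of that family all hold the C motif, and all but those of Gm22813 have the ACA end. These shares therefore count near-identical sequences more than once. A C motif within the first 15 bases together with a D motif within the last 15 was rarer in scaRNAs, at 5 of 51 (9.80%), than in snoRNAs, at 19.5%. Gm22009, Gm25395, Scarna6 and Scarna17 were among those 5. The letters TGAG, the core of the CAB motif, occurred in 37 members (72.5%), and they also occurred in 67.7% of all transcripts of this length. TGAG overlaps the D motif wherever CTGAG occurs, as in the last bases of Gm25395 and Scarna6.

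Gm22009, a guide of the box C/D motif type, made up most of the scaRNA signal. It had 19204 expected counts in replicate 1 and 19638 in replicate 2, which were 88.3% and 75.5% of all scaRNA counts. All scaRNAs together held 0.108% of the expected counts of replicate 1 (95% Wilson interval 0.106 to 0.109%) and 0.133% of those of replicate 2 (0.131 to 0.134%). Without Gm22009 the share was 0.0125% in replicate 1 and 0.0326% in replicate 2. The intervals cover counting error only. Per length, in TPM, which divides counts by effective length and scales each library to a fixed total, Gm22009 stood at 7725 in replicate 1 and 5665 in replicate 2, a mean of 6695 ± 1457 (SD, n = 2).

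Scarna2, which guides methylation of U2 snRNA and is the longest member, came second. It had 1717 and 3869 expected counts in replicates 1 and 2, and 445 and 778 TPM. Its level of 611 ± 235 TPM (SD, n = 2) lay below both values of Gm22009, and the ranges did not overlap. Gm25395 had 340 and 972 expected counts and 274 and 480 TPM. Scarna13, a guide built of paired H/ACA domains, had 368 and 944 expected counts and 286 and 453 TPM. The ranges of Scarna2, Gm25395 and Scarna13 overlapped, and Gm25395 and Scarna13 changed places between the replicates.

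Scarna6, a guide with both kinds of domain, had 88 expected counts in replicate 1 and 451 in replicate 2, or 77.8 and 239 TPM. Gm26083 had 16.3 and 75.1 expected counts, or 57.6 and 113 TPM. Both were higher in replicate 2, and their TPM ranges overlapped with each other. Detection was 6 of 51 scaRNAs (11.8%), against 23.3% of all named transcripts, 1.59% of 1507 snoRNA transcripts and 2.03% of 1383 snRNA transcripts. These classes differ in length. From 193 to 414 bases, the range of the 6 detected scaRNAs, 6 of 9 scaRNAs (66.7%) and 17 of 35 snoRNAs (48.6%) were detected. The range was set by the detected scaRNAs, so all 6 lie in it by construction. The scaRNA share is raised by this choice and cannot be compared evenly with the other shares. In that range 2.47% of all transcripts and 0 of 4 snRNAs were detected. Of the 8 scaRNAs of 200 bases or more, 5 were detected, and the other 3 (Gm25624, Gm26489 and Gm27414) were at 0 in every table of both libraries. Of the 43 shorter ones, Gm26083 alone was detected.

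The tables of estimated counts made directly from the reads, in the layout kallisto writes, held more of the short scaRNAs. By the same minimum, 17 of 51 members were detected there (33.3%), close to the 36.7% of all transcripts and above the 8.63% of snoRNAs and 8.03% of snRNAs. The 17 included all 6 members detected in the RSEM-layout tables. From 193 to 414 bases, 66.7% of 9 scaRNAs, 37.1% of 35 snoRNAs and 14.9% of all transcripts were detected in the kallisto layout. The scaRNA share is again raised by the choice of range. The largest difference among the other 11 was at Gm22442. It had 0 and 23 expected counts in replicates 1 and 2, but 135 and 369 estimated counts in the kallisto layout. Gm23119 had 2 and 17 expected counts against 45 and 101 estimated counts. Scarna3b, which had no expected count in either library, had 24 and 31 estimated counts. It overlaps CT030161.1, a transcript annotated on the same strand that shares 124 bases with it, so reads there can be divided between them. Its relative Scarna3a had 0 and 8 expected counts against 14 and 25 estimated counts. The estimates of Gm24644 were 20 and 30, those of Gm22767 were 16 and 15, and those of Gm25913 were 11 and 12. Gm26347, in the ubiquitin ligase gene Rnf41, had 26 and 14 with no expected count. None of the 17 had fewer counts in the kallisto layout than in the RSEM layout in either library.

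**Figure D1:**
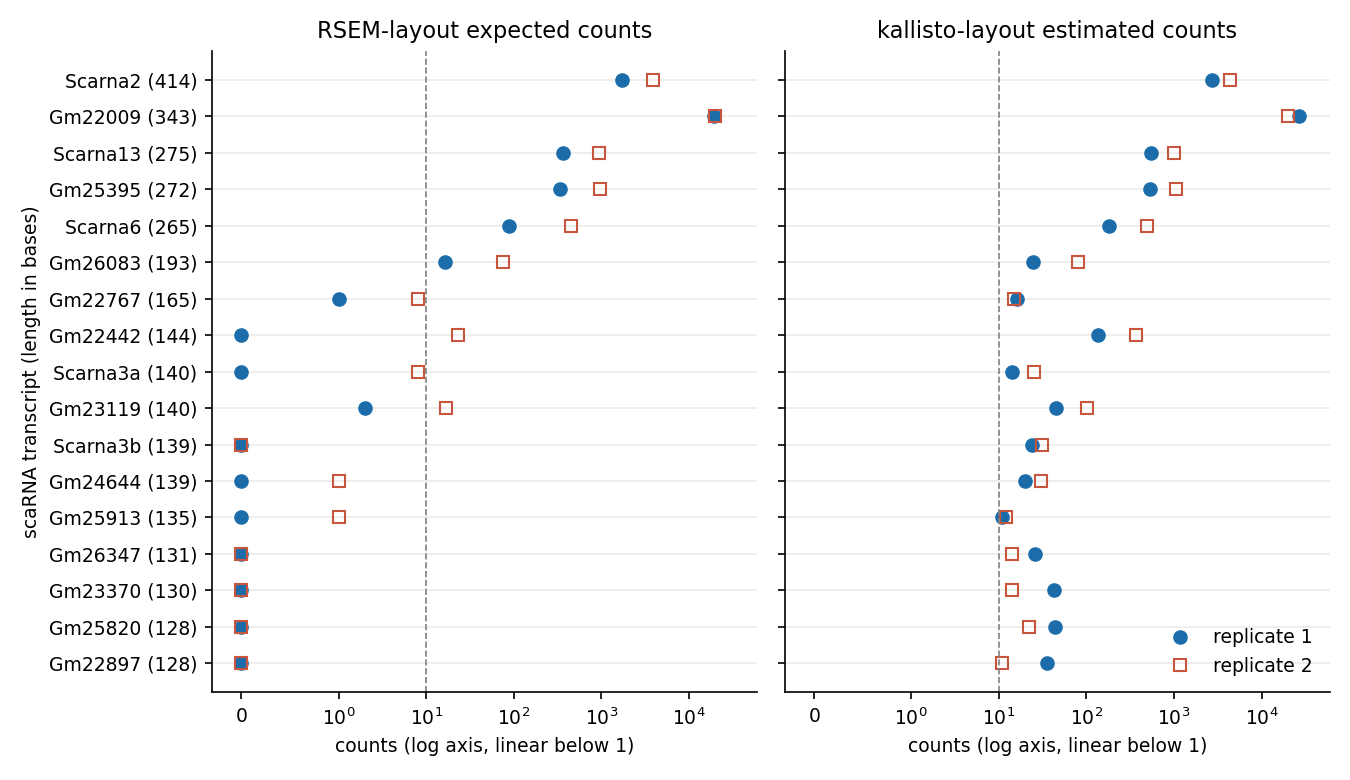
Counts of the 17 scaRNA transcripts detected in the kallisto-layout tables, on a log axis that is linear below 1, with expected counts on the left, estimated counts on the right and 1 point per library. The dashed line marks 10 counts in a library. Members are ordered by length, and those under 150 bases lie mostly at 0 on the left and above the line on the right.

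The gap between the tables was wider in replicate 1. For the 6 members detected in both, the kallisto-layout count was 1.40 to 2.06 times the RSEM-layout count in replicate 1 and 1.03 to 1.12 times in replicate 2. The totals of the whole tables stood at 1.72 times in replicate 1 and 1.43 times in replicate 2. Of the members with no expected count there were 42 in replicate 1 and 36 in replicate 2, while 23 and 21 had no estimated count. In all, 18 scaRNAs were at 0 in every table.

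The effective length, the number of positions at which a fragment can start within a transcript, differed with library and table. The RSEM-layout table listed it as 0 for 23 scaRNAs in replicate 1, the longest of 131 bases, and for 4 in replicate 2, the longest of 88 bases. None of these had an expected count. The kallisto layout gave 8 of the 23 a total of 173 estimated counts, and 3 of the 4 a total of 29. Effective lengths were under 10 bases for 42 members in replicate 1 and for 40 in replicate 2. Across transcripts of 1000 bases or more, length minus effective length plus 1, which stands for the mean fragment, had a median of 222 bases in replicate 1 and 187 in replicate 2. The kallisto-layout medians were 186 and 180 bases. The labels of both libraries give a size range of 250 to 400, which lies above each of these medians. For a member whose effective length was above 0, the upper limit at 0 expected counts, 3 counts of the total, was 1.49e-05% in replicate 1 and 1.53e-05% in replicate 2. It covers counting error only, within the reads that the RSEM-layout table assigned. Members listed with an effective length of 0 have no such limit. Gm22442, with 0 expected counts and an effective length of 2.06 bases in replicate 1, had 135 estimated counts there in the kallisto layout, so the limit does not bound the amount of RNA.

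**Figure D2:**
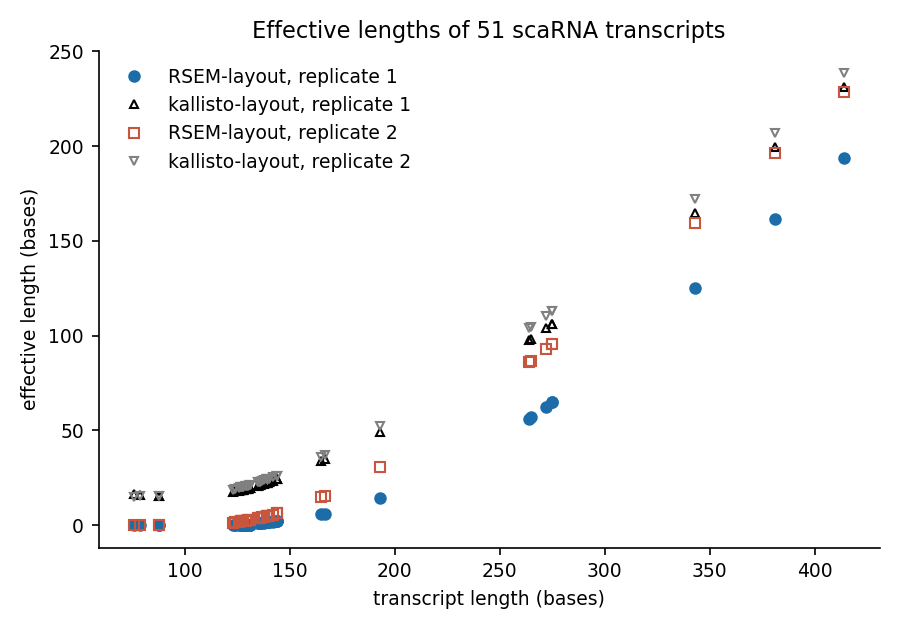
Effective length against transcript length, both in bases, for the 51 scaRNA transcripts in each library and table. Near 270 bases the RSEM-layout values of replicate 1 lie below those of replicate 2, and among members under 150 bases the kallisto-layout values lie above all RSEM-layout values.

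Small effective lengths set the TPM of short scaRNAs. Gm25492, of 129 bases, had 0 expected counts in replicate 1 and 17 in replicate 2. With an effective length of 2.43 bases, the 17 counts gave 322 TPM in replicate 2, above the 239 TPM that Scarna6 had from 451 counts. Only 4 scaRNAs had a higher mean TPM than its 161 ± 227 (SD, n = 2). Gm22442 reached 170 TPM in replicate 2 from 23 counts. In replicate 1, 2 counts gave Gm23119 62.6 TPM, and 1 count gave Gm27653 41.0 TPM. In the kallisto layout Gm25492 had 4 and 53 estimated counts, or 4.23 and 15.4 TPM.

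All 6 detected scaRNAs had more counts in replicate 2 after scaling for library size, Gm22009 by the smallest ratio. On CPM, counts scaled by library total, after TMM normalisation, Gm22009 stood at 928 in replicate 1 and 1032 in replicate 2, a ratio of 1.11 (95% counting interval 1.09 to 1.13). Scarna2 stood at 82.9 and 203 CPM, a ratio of 2.45 (2.32 to 2.60). Gm25395 stood at 16.4 and 51.1 CPM, a ratio of 3.11 (2.75 to 3.53). These are single libraries, so the intervals hold no variation between cultures.

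Scarna13 stood at 17.8 CPM in replicate 1 and 49.6 in replicate 2, a ratio of 2.79 (2.47 to 3.16). For Scarna6 the values were 4.25 and 23.7 CPM, with a ratio of 5.58 (4.43 to 7.09), the highest of the 6. For Gm26083 they were 0.789 and 3.94 CPM, with a ratio of 5.0 (2.94 to 9.38). Thus 5 of 6 were past 2-fold higher in replicate 2 and 0 were past 2-fold lower, while 11.2% of all 33006 detected transcripts were past 2-fold higher and 7.45% past 2-fold lower. The other small RNA classes moved the same way. Past 2-fold higher were 21 of 24 detected snoRNAs and 27 of 28 detected snRNAs, with 0 lower in each class. The median log2 ratio was 1.56 over the 6 scaRNAs and 0.01 over all detected transcripts.

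The direction depended on the scale. On RSEM-layout TPM, which also divides by each library's effective length, the median log2 ratio of the 6 fell to 0.81, while that of all detected transcripts was -0.28. On this scale the 5 members other than Gm22009 were 1.59 to 3.07 times as high in replicate 2, and only Scarna6 was past 2-fold. On kallisto-layout TPM all 6 were lower in replicate 2, with a median of -0.91 against -2.29 for all detected transcripts. Scarna2, for example, had 236 and 109 TPM in that layout, and Gm22009 had 3276 and 703. Relative to the median of all detected transcripts, the 6 lay 1.55 log2 units higher in replicate 2 on TMM-normalised CPM, 1.08 higher on RSEM-layout TPM and 1.38 higher on kallisto-layout TPM.

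In the kallisto-layout counts, 13 of the 17 detected scaRNAs had higher TMM-normalised CPM in replicate 2. Past 2-fold were 9 higher and 2 lower, against 11.4% of all 52060 detected transcripts higher and 7.03% lower. Among the 130 snoRNAs detected there, 26.9% were past 2-fold higher, and among the 111 snRNAs 30.6%, with 6 and 12 transcripts past 2-fold lower. Among the 6 members detected in both tables, Gm22009 had the same ratio of 1.11, Scarna2 had 2.36 against 2.45 and Scarna6 had 4.04 against 5.58. The 11 others were mixed, with 7 higher in replicate 2 and ratios from 0.464 for Gm22897 to 4.04 for Gm22442. The 2 past 2-fold lower were Gm22897 and Gm23370, of the family with the internal TGATGA.

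In the RSEM-layout counts, the ratio also moved with length across all transcripts. Among all transcripts of 193 to 414 bases, the range of the 6 detected scaRNAs, 343 were detected, with a median log2 ratio of 0.40 and 30.6% past 2-fold higher in replicate 2. All 17 detected snoRNAs in that range were past 2-fold higher, with a median of 3.19. In the kallisto layout, 2073 transcripts of that range were detected, with a median of 0.20 and 16.8% past 2-fold higher. There, 12 of 13 such snoRNAs were past 2-fold higher, with a median of 1.53. Whether length, fragment size or starting amount plays a part in the scaRNA ratios was not tested.

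**Figure D3:**
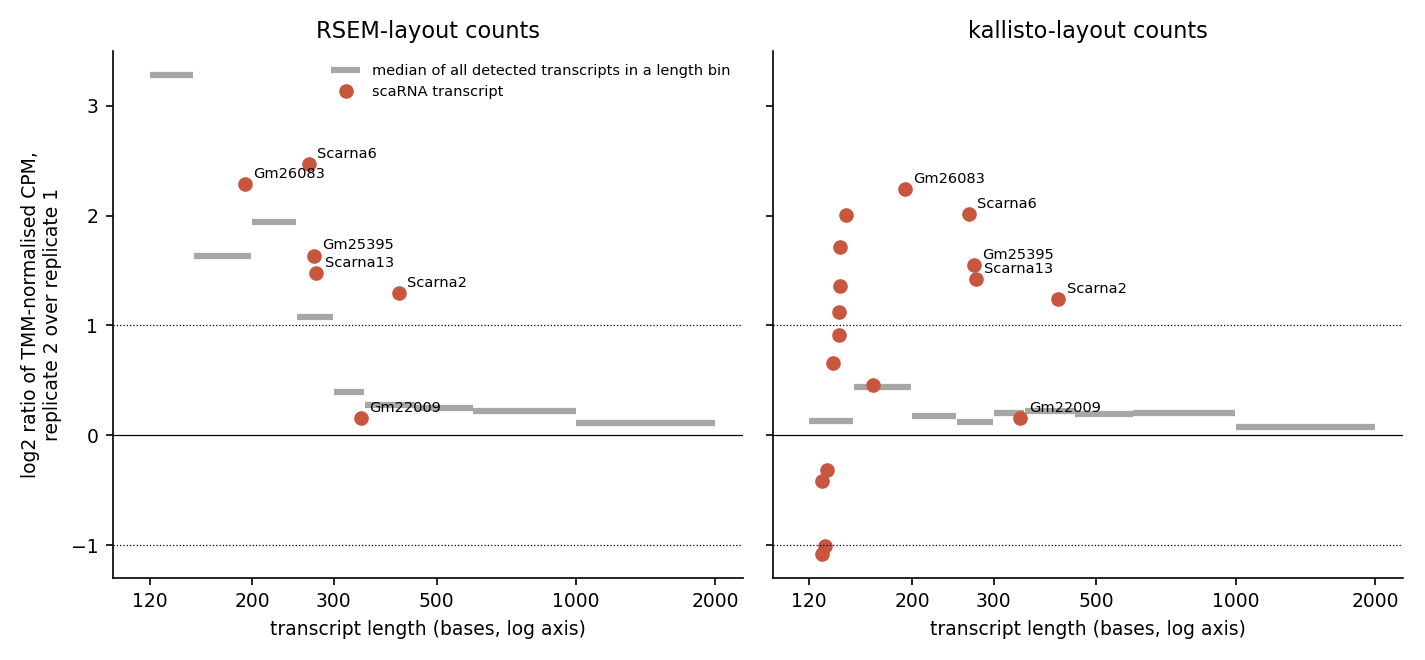
Log2 ratio of TMM-normalised CPM, replicate 2 over replicate 1, against transcript length on a log axis, for detected scaRNAs (points) and the median of all detected transcripts in bins of length (grey lines). The dotted lines mark 2-fold. On the left, the grey medians fall with length from the 3rd bin on, and the leftmost and 3rd bins hold only 8 and 19 transcripts. On the right, they run from 0.08 to 0.44 without a steady fall. Gm22009 lies near 0 in both panels, and the other 5 named scaRNAs lie above 1 in both.

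By position in the annotation, 29 scaRNAs lie in introns of a gene on the same strand and 2 overlap an exon of such a gene. Another 5 overlap a gene only on the opposite strand, and 15 lie between genes. The strand setting of the counting is not given in the sources used here, so reads of a scaRNA and of a gene on the other strand cannot be told apart. Reads of unspliced host RNA that fall on an intronic scaRNA cannot be told apart from its own reads by position, and their part was not tested. Of the 31 members with a host on the same strand, 15 were detected in the kallisto-layout tables. Of the 20 without one, 2 were detected there, Scarna2 and Gm23119. Both libraries of that layout held 0 counts for 7 of the 31 and for 13 of the 20.

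The 25 host genes are mostly active in these cells, and 23 had at least 1 TPM in both libraries, with a median of 16.2 TPM. Gm22009 lies in an intron of Kpna4, an importin of the nuclear pore transport system, which had 25.2 TPM in replicate 1 and 18.9 in replicate 2. The host had 3354 and 2450 expected counts, fewer than the 19204 and 19638 of its scaRNA. Gm25395 and Scarna6 lie in introns of Atg16l1, an autophagy gene, which had 30.4 and 26.8 TPM. On TMM-normalised CPM the host stood at 70.2 and 83.0, a smaller step than the 16.4 to 51.1 of Gm25395 or the 4.25 to 23.7 of Scarna6. Chd3, a chromatin remodeller that holds Gm22442, had 29.3 and 36.1 TPM. Chd4, a relative of Chd3 that holds Gm23751, was the highest host at 69.9 and 70.4 TPM, and Gm23751 had no expected count and only 10 and 5 estimated counts.

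Scarna13 lies in an intron of Snhg10, a non-coding host gene of small RNAs. The spliced host was nearly undetected, with 0 expected counts in replicate 1 and 4 in replicate 2 (0 and 0.54 TPM), while Scarna13 had 368 and 944. Gm26083 overlaps an exon of Snhg20, another non-coding host, which had 25.0 and 20.2 TPM, so reads of the host can be assigned to the scaRNA and the reverse. MicroRNA genes are annotated inside Scarna13 (Mir3069), Scarna3a (Mir1843b), Scarna3b (Mir1843a) and Gm26083 (Mir6516), and their reads cannot be told apart from those of the scaRNA by position.

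Among the hosts of the short members, Cop1, an E3 ubiquitin ligase that holds Scarna3a, had 62.3 TPM in replicate 1 and 34.1 in replicate 2. Dcaf5, which holds Scarna3b, had 9.51 and 7.97 TPM. Bud23, a ribosomal RNA methyltransferase that holds Gm25492, had 10.9 and 15.3 TPM. Fbxo3, an F-box gene that holds Gm24644, had 19.4 and 13.0 TPM. Ppp1r8, a nuclear regulator of protein phosphatase 1 that holds Gm22767, had 8.72 and 4.98 TPM. Cog5, a gene of Golgi transport that holds Gm25913, had 26.0 and 18.7 TPM. These hosts were all well above Snhg10, and their scaRNAs were all below Scarna13 on kallisto-layout CPM. Scarna8 lies in Haus6, a gene of the augmin complex of the spindle, and had 5 and 0 estimated counts. Over the 26 scaRNA symbols with a host, the Spearman correlation of mean host TPM with mean scaRNA CPM in the kallisto layout was 0.45. It is given as a description, since all points come from the same 2 libraries and some share a host or a near-identical sequence. The part of unspliced host RNA in these scaRNA values was not tested.

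**Figure D4:**
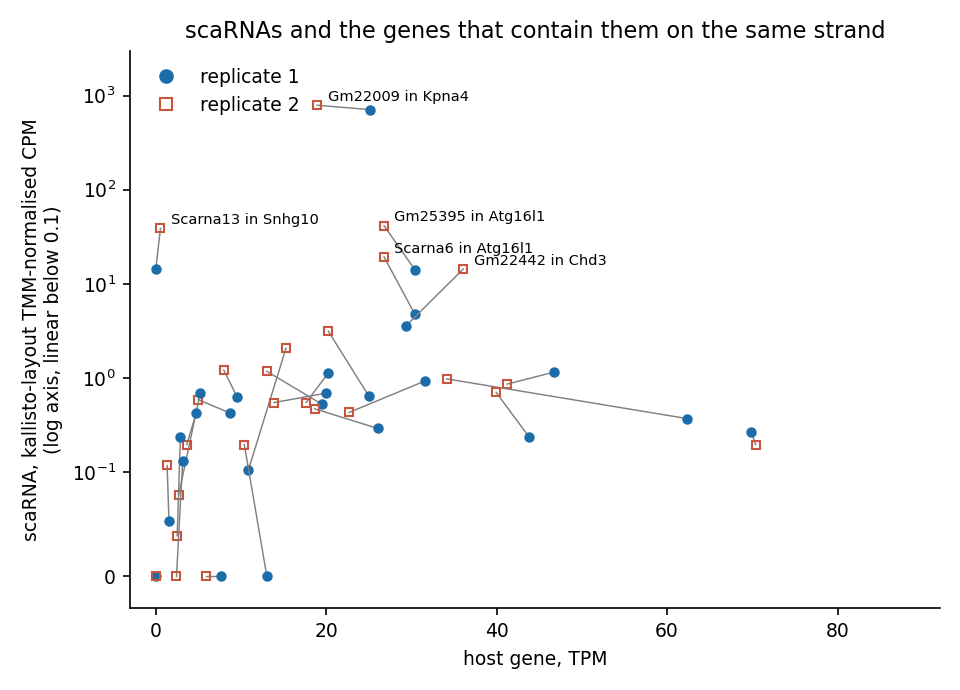
TMM-normalised CPM of each scaRNA in the kallisto layout, on a log axis that is linear below 0.1, against the TPM of the gene that contains it on the same strand. Each line joins replicates 1 and 2 of 1 scaRNA. Scarna13 stands far above its host Snhg10, and Gm22009 is the highest although Kpna4 is not the highest host.

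Several near copies that lie between genes had no counts. Whether unspliced host RNA added to the counts of the copies inside introns was not tested. Gm22442, in Chd3, had 135 and 369 estimated counts, and Gm23386, 94.4% identical and between genes, had 0 and 0 in every table. Scarna13 has copies of 81.8% identity in Gm25624 and 81.1% in Gm26489, both between genes and both at 0 in every table. Gm22442 and Gm23386 align over 143 bases at 95% identity or more, while no alignment of Scarna13 with its copies reached that identity over 31 bases. Identity was taken over whole alignments, so an identical stretch inside a longer, less similar alignment would be missed. The opposite case was Gm22416 and Gm25119, which are identical over all 88 bases. Each was given 0.5 estimated counts in replicate 2, an equal division that leaves neither value assigned to 1 gene.

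The family of Gm25820 shows how far single values can be trusted. It has 11 transcripts under 6 symbols, whose identity to the longer Gm25820 transcript runs from 85.9 to 99.2% for the other 10. In the kallisto layout the longer transcript of Gm25820, in an intron of the RNA-binding protein gene Khdc4, had 43.6 and 22 estimated counts. Gm23370, in the glycosyltransferase gene Mgat5, had 42.3 and 14. Gm22897, in the kinase gene Cdk14, had 35.1 and 11. The shorter transcript of each pair, 1 base less, had 0 in both libraries. Summed over the family, the estimated counts were 121 and 52, or 3.19 and 2.03 CPM after TMM normalisation, and each member's own value is uncertain. Gm25058, the copy between genes and 95.3% identical to Gm25820, was at 0 in every table. Expected counts of the family in the RSEM layout were 0 except for 1 count at Gm23370 in replicate 2.

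Scarna17 and Gm23119 lie 91 bases apart on the minus strand of chromosome 18, at 74778391 to 74778469 and 74778561 to 74778700. Gm23119 had 45 and 101 estimated counts, and Scarna17, of 79 bases, had 8 and 28 with no expected count. A second pair, Gm26183 and Gm25443, lies 87 bases apart on chromosome 19, with 92.9% identity to Gm23119 and 92.4% to Scarna17. Both members of the second pair were at 0 in every table.

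RNA of most genes for the proteins that build, process and place these guides was detected, and no protein was measured. Among the 4 box C/D proteins, fibrillarin (Fbl), the methyltransferase, had 8.71 TPM in replicate 1 and 7.92 in replicate 2, and the scaffold protein Nop56 had 33.4 and 24.4. Among the 4 box H/ACA proteins, dyskerin (Dkc1), the pseudouridine synthase, had 8.18 and 6.80 TPM, and its partner Gar1 had 15.7 and 4.37. Nop58 had 9.94 and 10.3 TPM and Snu13, which binds the kink of the C/D motif, had 17.1 and 7.46. Nhp2 had 3.49 and 3.76 TPM, and Nop10 was the lowest at 2.15 and 1.00. All 8 had at least 1 TPM and 10 expected counts in both libraries, with list medians of 11.3 ± 3.13 TPM for box C/D and 4.95 ± 1.25 TPM for box H/ACA (SD, n = 2). None of the 8 differed 2-fold between replicates by TMM-normalised CPM, while on TPM Gar1, Snu13 and Nop10 did.

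Of 13 genes for assembly and RNA processing, all 13 met the same minimum, with a median of 4.07 ± 0.983 TPM (SD, n = 2). Tgs1, which forms the trimethylguanosine cap of small nuclear RNAs, had 51.3 and 47.7 TPM. Parn, a deadenylase that trims RNA 3′ ends, had 5.28 and 3.35 TPM, and Toe1, which trims small nuclear RNAs, had 4.80 and 5.94. Of 20 genes of Cajal bodies and RNA targeting, 17 met the minimum, with a median of 4.12 ± 0.870 TPM. The exceptions were Gemin4, Gemin6 and Gemin8 of the SMN complex.

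Coilin (Coil), the structural marker of Cajal bodies, had 2.34 TPM in replicate 1 and 2.24 in replicate 2. Wrap53, which binds the CAB motif, had 2.61 and 2.86 TPM. Tardbp, an RNA-binding protein, was the highest of this list at 122 and 78.1 TPM, and Ell2, an elongation factor, had 56.9 and 26.6. On TMM-normalised CPM, Gemin2 was the only gene of the 4 lists past 2-fold between replicates, with 1.74 and 4.10. On TPM, others were past 2-fold too. Gar1, Snu13, Nop10, Tent4b, Ell2 and Gemin8 were lower in replicate 2, and Shq1 was higher, at 1.05 and 2.11 TPM. The labelled cell type was checked with markers: all 7 macrophage genes were between 69.9 and 1640 TPM, and no lymphocyte, neutrophil or erythroid marker was above 0.30 TPM in either library. Of the 2 stromal markers, Pecam1, an adhesion molecule of endothelial and some blood cells, had 2.02 and 1.48 TPM (89 and 91 expected counts), and Col1a1, a collagen gene, had 0.050 and 0 TPM. The part of other cells in the scaRNA values was not tested.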

How the data were processed

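The 2 libraries of 1 group hold nucleoplasmic total RNA depleted of ribosomal RNA. The deposited expected counts and TPM per transcript and per gene come from transcriptome alignments (mm10, GENCODE M21), per the deposited file notes, and have the layout RSEM writes. The deposited estimated counts and TPM of the kallisto-layout tables were made from the reads directly, per the same notes. No source used here gives the programs or the strand setting. The authors' tables also give posterior mean counts and TPM, per the file headers. Spike-in and unnamed entries were left out of the 141767 transcripts.

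Members, gene lists and measures were chosen with earlier results of these data known. Named are all detected members (at least 10 counts in each library), the 5 highest by mean TPM, those with the largest ratios, all Scarna symbols, their hosts, and the 4 protein lists, shown by examples and ranges. The other members named were chosen after their values were seen. CPM used TMM factors from edgeR 4.0.16 (DESeq2 1.42.0 size factors as an alternative) in R 4.3.3, and log2 ratios a prior of 0.5 counts. This step was tested on simulated data. With 1 library on each side there is no test, and differences are read against 2-fold. Counting intervals are exact, at 95%. Motifs were read from the annotated transcripts on their own strand. Identity is identical bases over the longer length in an end-to-end alignment (Biopython 1.88). Stretches shared with other transcripts were found with blastn 2.17.0, as whole alignments of at least 31 bases at 95% identity or more. Python 3.11.15 with pandas 2.3.3 and scipy 1.17.1 did the rest. The libraries totalled 20196407 and 19588979 expected counts and 34774610 and 27988909 estimated counts. Alternatives were other count minimums, priors, factors and tables, and leaving out each library.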

Additional observations from a re-analysis of the deposited data

How the results depend on the processing

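The number of scaRNAs detected rose from 6 to 17 in the kallisto-layout tables, and that 17 fell to 6 with a minimum of 50 counts. It was 5 to 8 with other minimums in the RSEM-layout table, and 6 without replicate 2 and 9 without replicate 1. The share of counts, 0.120 ± 0.0178% (SD, n = 2), was 0.0952% in the kallisto layout. The share of TPM, 0.875 ± 0.0327%, was 0.270% in the kallisto layout and 0.821% when only members with an effective length of at least 30 bases were kept. Without Gm22009, an alternative chosen after seeing the data, the shares were 0.0226% of counts and 0.205% of TPM. Of the 6 detected members, 5 were past 2-fold between replicates, against 1 on TPM, 11 of 17 in kallisto-layout counts and 14 of 16 with no minimum. With no minimum, a single count is enough to pass 2-fold. Gm24644 passed with 0 and 1 counts (log2 ratio 1.63), and Gm27653 passed in the other direction with 1 and 0 (-1.55). The share over all transcripts at that setting is not given here, so the 14 of 16 carries little weight. Kallisto-layout TPM, added after seeing the data, reversed the median log2 ratio from 1.56 to -0.91, with 2 members past 2-fold, both lower in replicate 2. It was 0.81 to 1.64 under the other alternatives. Counts below 10 in most members limit what the RSEM-layout table can show for scaRNAs under 150 bases. Gm22009 aligned with 567 other transcripts over at least 31 bases at 95% identity or more, so reads within such stretches can be divided. The longest such alignment had 46 bases, against its length of 343 bases. No other transcript matched it at 90% identity over 90% of its length. Its expected counts equalled its posterior mean counts, 19204 in replicate 1 and 19638 in replicate 2. No paired analysis was possible because the samples form 1 group.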
